A study of Mus musculus with 28 samples.

Results

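Samples labelled spermatogonia, the name of the mitotic and stem germ cells of the testis, were compared with primordial germ cells (PGC). These PGC came from the fetal testis at 17.5 days post coitum (E17.5) and are the precursors from which spermatogonia descend. Whether the labelled samples were dividing was not tested, and most tested genes of mitosis were lower in them than in PGC. The comparison used 4 of the 28 single-colour Agilent arrays of the series, chosen by their labels: 2 arrays of spermatogonia and 2 of E17.5 male PGC. The spermatogonia came from male mice of the strain BDF1 x Tg(Mvh-Venus)1Rbrc, and the PGC from male fetuses of the strain BDF1 x TgN(deGFP)18Imeg, so both strains carry a reporter transgene, and a different one in each group. The labels state no age or sort for the spermatogonia and do not say that replicates were separate animals. The p-values rest on the spread between replicate arrays, pooled over the 14 groups of all 28 arrays, and that spread may be technical. It is not the spread of the 4 compared arrays alone. A second pair of groups served for one contrast: oogonia (2 arrays) against E17.5 female PGC (2 arrays). The series' other groups were PGC of both sexes at E10.5 and E13.5, female and male EG cells, 2 ES lines, GS cells (cultured spermatogonial stem cells, strain DBA/2) and adult testis (C57BL/6J), with 2 arrays each.

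Between E17.5 and birth the male germ cell is arrested in G0/G1, remethylates its genome and silences transposons. After birth it moves to the edge of the seminiferous tubule and resumes division, and part of the population becomes the undifferentiated spermatogonia that sustain sperm production. Glial cell line-derived neurotrophic factor (GDNF) from Sertoli cells, the nurse cells of the tubule, keeps these stem cells through a receptor made of Gfra1 and Ret, while retinoic acid drives the other cells towards meiosis.

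Signals were well above background for 41.3% and 49.6% of the probes on the spermatogonia arrays, and for 46.0% and 43.8% on the E17.5 male PGC arrays. With 2 arrays a group, precision is limited by the number of arrays. All levels below are log2 processed signals relative to the 75th percentile of the array, so each log2 unit is a doubling, and levels of different genes are not compared because they come from different probes. Both spermatogonia arrays shared 1 slide and 1 scan day with no other sample, and the PGC arrays lay on 2 other slides scanned on 2 other days, so slide or scan day and group cannot be told apart. Levels of the replicates correlated at r = 0.987 for spermatogonia and r = 0.968 for PGC across genes. In bulk RNA, fewer cells of a type and less RNA per cell cannot be told apart either.

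All 8 measured markers of a general germ cell list were well above background on all 4 arrays. So were 11565 of the 13747 genes tested, so detection alone cannot tell germ cells from other cells. Ddx4 (Mvh, a germ cell RNA helicase) stood at 0.99 and 0.64 in spermatogonia, against 0.16 and 1.06 in E17.5 male PGC. Of these 8 markers 2 were lower in spermatogonia at an adjusted p under 0.05 (limma) and none higher. Among all tested genes 11.8% were lower and 8.71% higher. The list median was -0.69, against -0.11 for all tested genes. With the slide as a random block 1 marker was lower. The summed log2 level of the list was 4.02 and 3.93 in spermatogonia, against 4.43 and 4.40 in PGC. Of 10 measured spermatogonial markers, 8 were well above background on both spermatogonia arrays and 6 on both PGC arrays. Zbtb16 (PLZF), a defining factor of undifferentiated spermatogonia, was not well above background on either spermatogonia array (-8.66 and -7.57) or on either PGC array (-6.89 and -8.41), and Etv5, a GDNF-responsive transcription factor, was so on 1 spermatogonia array and on no PGC array. Neither was tested. Stromal genes were detected on both sides: of 12 stromal markers, 9 were well above background on both spermatogonia arrays and 11 on both PGC arrays.

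The expression of 13747 genes was tested, of which 2817 (20.5%) differed between spermatogonia and E17.5 male PGC at an adjusted p under 0.05 (limma). Higher in spermatogonia were 1198 genes (8.71%) and lower 1619 (11.8%). A change of at least 4-fold was called upwards for 125 genes (0.909%) and downwards for 370 (2.69%). For 88 of the higher and 127 of the lower genes the dimmer group was not well above background, so that only a lower bound of the fold can be given. With the slide as a random block 496 genes were called higher and 673 lower. The split of the calls moved with the scaling: a 75th percentile over all probes gave 1541 higher and 910 lower, quantile normalization 1584 and 1121, normexp background correction 336 and 644, and the deposited log2 values 62 and 56. The median change of all tested genes was -0.11 here and 0.11, 0.08, -0.27 and 0.21 under those scalings, which is the shift against which any modest change has to be read. Of the 2817 calls, 2754 kept their sign in all 4. The 2 arrays of one group lay wholly above or below those of the other for 72.9% of tested genes, so groups that do not overlap are common here.

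**Figure D1:**
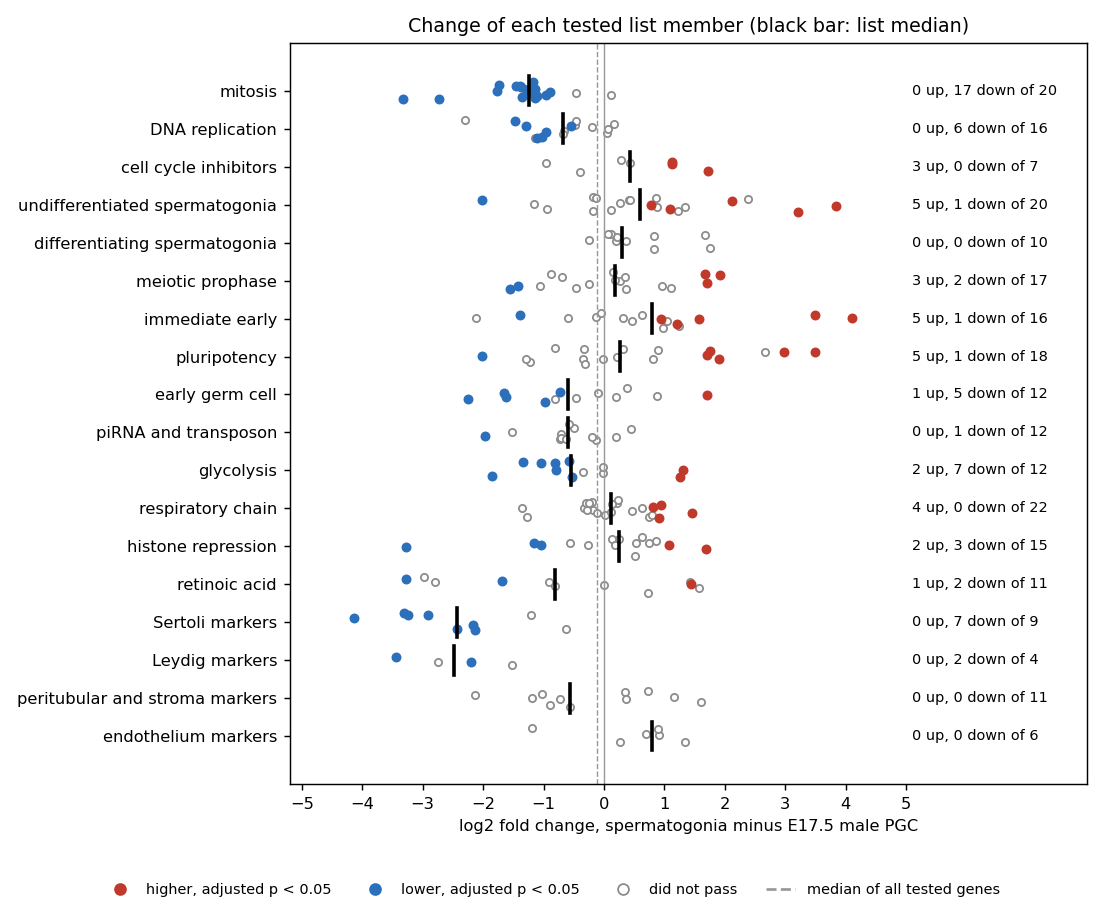
Log2 fold change of every tested member of 18 gene and marker lists, spermatogonia minus E17.5 male PGC (horizontal axis), with 1 row per list. Filled points passed an adjusted p of 0.05, black bars are list medians and the dashed line is the median of all tested genes at -0.11. The mitosis list has 17 of 20 members lower and the Sertoli list 7 of 9, while the undifferentiated spermatogonia, immediate early and pluripotency lists each have 5 higher members.

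The largest increases in spermatogonia included the transcription regulators Id4, Pou3f1, Egr1 and Egr2. Id4, an inhibitor of helix-loop-helix factors that marks the spermatogonial stem cell, had levels of -0.27 and -0.58 in spermatogonia, against -4.42 and -4.10 in E17.5 male PGC. The groups lay far apart, with a log2 change of 3.83 ± 0.25 (SE) and an adjusted p of 5.76e-07. Egr2 and Egr1, zinc finger factors switched on within minutes of receptor tyrosine kinase signalling, changed by 4.11 ± 1.36 and 3.49 ± 0.70. Pou3f1, a POU factor that GDNF induces in cultured spermatogonial stem cells, changed by 3.21 ± 0.38. The p53 target Pmaip1 (Noxa), which promotes apoptosis, changed by 3.25 ± 0.79.

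Of the 15 strongest increases, 9 started from a PGC level that was not well above background, so they are bounds. Nr5a2, a nuclear receptor that activates Pou5f1 in embryonic cells, was at least 9.05-fold higher in spermatogonia (adjusted p = 0.001). Fam81a was at least 4.78-fold higher and Hs3st3b1, a heparan sulfate sulfotransferase, at least 4.74-fold. Lefty2, a secreted antagonist of Nodal, was at least 4.02-fold higher, Fam184b 4.05-fold and Papolb, a testis poly(A) polymerase, 3.88-fold, each again at least. The remaining members were Adm, a vasodilator peptide (at least 2.99-fold), Adra2a, an adrenergic receptor (2.71-fold), and Cdnf, a neurotrophic factor (2.09-fold). Their adjusted p-values ran from 8.58e-05 for Fam81a to 0.029 for Cdnf.

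The strongest decreases came from genes of varied function. S100a9, a calcium-binding protein of neutrophils, was not well above background in spermatogonia, against -3.45 and -3.05 in PGC, which makes it at least 11.7-fold lower (adjusted p = 0.0075). Dhh, the hedgehog ligand of Sertoli cells, was at least 10.6-fold lower. Optn, an autophagy receptor, was at least 6.99-fold lower, Sdsl 5.74-fold, Kiss1 (kisspeptin) 5.49-fold, Pop1, a subunit of RNase P, 5.44-fold, Defb42, a defensin, 4.89-fold, Plpbp 3.98-fold and Csta2, a cystatin with close relatives in its family, 3.05-fold, each at least. Among genes measured on both PGC arrays and on 1 or both spermatogonia arrays, the bile salt pump gene Abcb11 fell by 4.45 log2 units, Cstdc1 by 4.45, the complement gene C6 by 4.21 and Mybpc3, a myosin-binding protein, by 3.95.

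Of 20 tested genes of the undifferentiated spermatogonia list, 5 were higher and 1 lower, against 8.71% higher and 11.8% lower among all tested genes, and the list median was 0.60. The higher calls numbered 3 without either spermatogonia array and 3 with the slide as a random block, and the lower call was lost without spermatogonia replicate 1, without either PGC array and with that block. The higher genes were Id4, Pou3f1, Cdh1, Cd9 and Foxo1. Pou3f1 was at 2.05 and 1.81 in spermatogonia, against -1.31 and -1.26 in PGC (adjusted p = 9.69e-05). Cdh1 (E-cadherin), a surface protein of undifferentiated spermatogonia, was at -1.05 and -1.26, against -3.66 and -2.89 (2.12 ± 0.39). All values of these genes in spermatogonia lay above those in PGC, and the gaps exceeded the distance between replicates. Cd9, a tetraspanin used to enrich stem cells, rose by 1.097 ± 0.31. Foxo1, which stem cell maintenance requires, rose by 0.78 ± 0.21, with 1.06 and 1.26 in spermatogonia against 0.29 and 0.48 in PGC.

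Utf1, a chromatin protein found in the earliest spermatogonia and in embryonic stem cells, was the lower one, at -2.35 and -1.89 in spermatogonia against 0.13 and -0.34 in PGC (-2.01 ± 0.56, adjusted p = 0.019). Gfra1, the GDNF co-receptor, was well above background on both spermatogonia arrays (-5.80 and -6.27) and on neither PGC array, but did not pass (adjusted p = 0.18). Nanos2, an RNA-binding protein of stem cells, stood at -4.78 and -4.68, against -4.78 and -6.39 (adjusted p = 0.60), with 1 PGC array well above background. Pax7, a marker of rare stem cells, stood at -3.65 and -3.73 against -5.40 and -4.66 (adjusted p = 0.34). Ret, the signalling chain of the GDNF receptor, was not analysed here. The differentiating spermatogonia list had 10 tested members and no call. Its largest differences belonged to Sohlh2, a driver of differentiation, at -2.55 and -2.39 against -4.76 and -3.71 (1.76 ± 0.75, adjusted p = 0.11), and to Stra8, which retinoic acid induces before meiosis, at -1.66 and -1.42 against -3.20 and -3.23 (1.67 ± 1.12, adjusted p = 0.32).

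**Figure D2:**
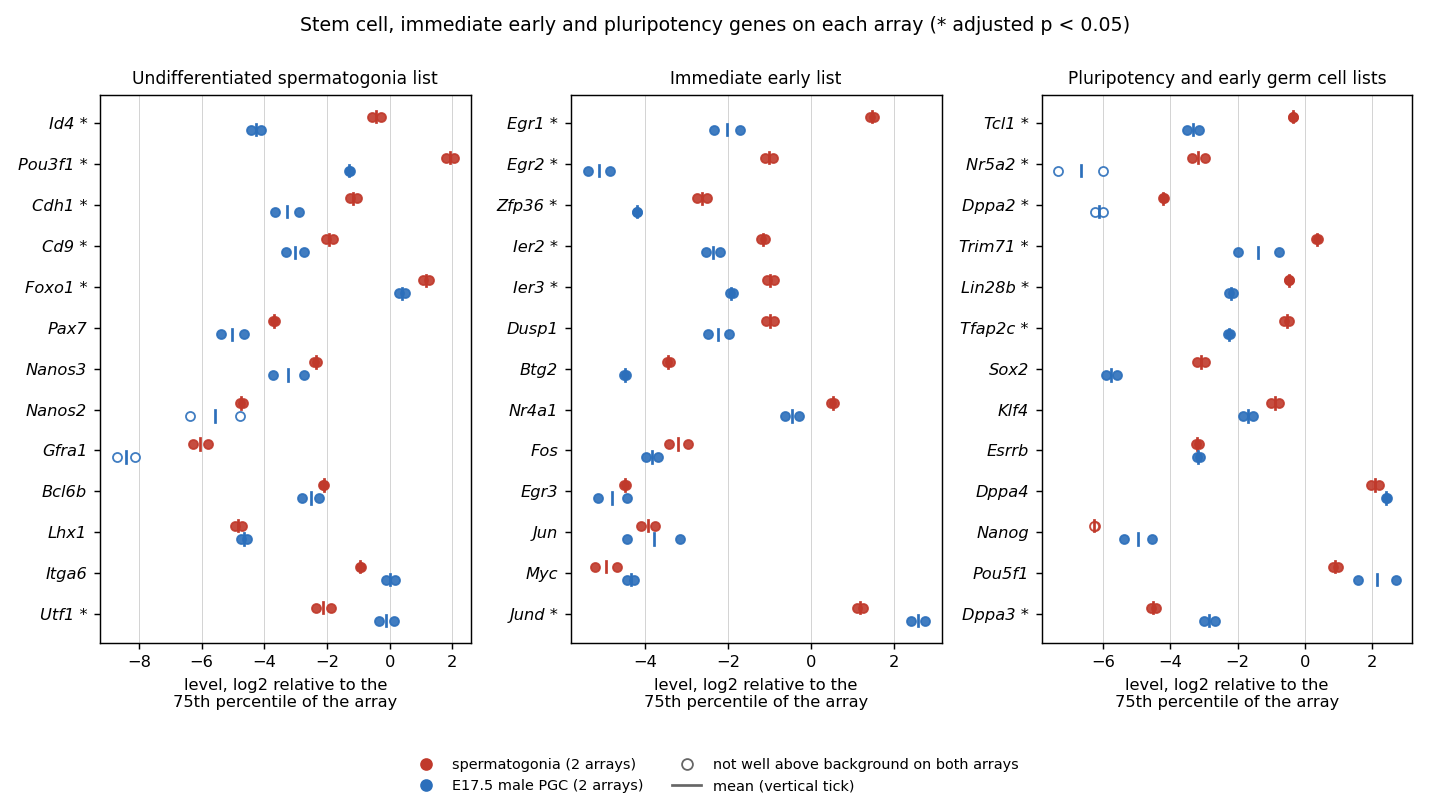
Level of each gene on each of the 4 arrays (horizontal axis, log2 relative to the 75th percentile of the array) for members of the undifferentiated spermatogonia, immediate early, and pluripotency and early germ cell lists. Red points are the 2 spermatogonia arrays, drawn above the blue points of the 2 E17.5 male PGC arrays, vertical ticks are means and open points belong to groups not well above background on both arrays. Id4, Pou3f1, Egr1 and Egr2 show gaps of over 3 log2 units, while Utf1 and Jund are lower in spermatogonia.

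Immediate early genes, the first genes transcribed after a growth factor or stress signal, were called higher for 5 of 16 tested members and lower for 1, against 8.71% and 11.8% of all tested genes, with a list median of 0.79. The number of higher calls was 1 with the slide as a random block, 1 without either spermatogonia array or without PGC replicate 2, and to 2 without PGC replicate 1. Egr1 was at 1.52 and 1.42 in spermatogonia, against -2.33 and -1.71 in E17.5 male PGC (adjusted p = 0.0029). Egr2 was at -0.90 and -1.10, against -5.38 and -4.84 (adjusted p = 0.042). Neither gene's groups came near each other. Zfp36 (tristetraprolin), which destabilizes messages of inflammation, rose by 1.57 ± 0.52, Ier2 by 1.21 ± 0.32 and Ier3 by 0.94 ± 0.30. Other members did not pass: Fos stood at -3.42 and -2.95 in spermatogonia against -3.68 and -3.97 in PGC (adjusted p = 0.55), and Myc at -4.67 and -5.21 against -4.25 and -4.43 (adjusted p = 0.62). Jund, another factor of the AP-1 family, was lower (-1.39 ± 0.35, adjusted p = 0.012).

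The CArG box, the site of serum response factor, is shown in the promoter windows of the higher genes Egr2 (chr10:67537316-67537615, plus strand) and Zfp36 (chr7:28379179-28379478, minus strand), from 250 bases before to 50 after the annotated start (RefSeq, GRCm38.p6). Capitals mark the box, searched by name on both strands.
Egr2: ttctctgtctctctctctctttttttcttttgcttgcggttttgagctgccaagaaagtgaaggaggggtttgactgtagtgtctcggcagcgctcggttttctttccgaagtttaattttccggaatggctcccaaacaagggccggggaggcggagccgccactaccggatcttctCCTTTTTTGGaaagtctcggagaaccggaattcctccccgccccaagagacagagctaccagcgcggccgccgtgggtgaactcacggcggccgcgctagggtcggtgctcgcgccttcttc
Zfp36: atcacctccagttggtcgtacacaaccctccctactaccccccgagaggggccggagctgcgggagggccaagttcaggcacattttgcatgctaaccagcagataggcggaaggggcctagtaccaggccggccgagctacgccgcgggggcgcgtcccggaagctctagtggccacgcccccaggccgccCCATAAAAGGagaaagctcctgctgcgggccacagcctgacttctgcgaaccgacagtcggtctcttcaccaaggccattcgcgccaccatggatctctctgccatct
These 2 were the members that held the box among the 11 of 16 tested immediate early genes with a window (18.2%), against 1.77% of tested genes with a window and 1.81% of all genes in the table, and the box can overlap a CCAAT box. The match is a description of letters only.

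Of 18 tested genes of pluripotency 5 were called higher and 1 lower, against 8.71% and 11.8% of all tested genes, and with the slide as a random block 3 were higher and none lower. Tcl1, a co-activator of Akt kinase, was at -0.35 and -0.36 in spermatogonia, against -3.50 and -3.15 in PGC (2.97 ± 0.68, adjusted p = 0.0062). Lin28b, which blocks let-7 microRNAs, was at -0.49 on both spermatogonia arrays, against -2.25 and -2.13 (1.70 ± 0.20, adjusted p = 0.0001). Replicates of Lin28b were almost identical and the groups well apart. Trim71, a let-7 target, rose by 1.75 ± 0.44. Dppa2, a chromatin protein of early embryos, rose by 1.90 ± 0.59 from a PGC level that was well above background on 1 of 2 arrays. With Nr5a2 these make the 5. Without spermatogonia replicate 1, 2 members were called higher and without PGC replicate 1, 3.

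No core factor passed the test. Pou5f1 (Oct4) stood at 0.82 and 0.98 in spermatogonia, against 2.69 and 1.56 in PGC (-1.22 ± 0.57, adjusted p = 0.14). Nanog was well above background on 1 spermatogonia array (-6.24 and -6.27), against -5.38 and -4.55 (adjusted p = 0.065). Sox2 pointed upwards, at -2.97 and -3.21 against -5.92 and -5.59, but did not pass (2.66 ± 1.16, adjusted p = 0.12). Its groups did not overlap on these 4 arrays.

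Early germ cell genes, which specify or mark PGC, were called lower for 5 of 12 tested members and higher for 1. Among all tested genes 11.8% were lower and 8.71% higher, and the list median was -0.59. Leaving out any 1 of the 4 arrays cost most of the lower calls and also the higher one. Sertoli markers, given further on, were lower on the same arrays, and their part here was not tested. Dppa3 (Stella), which shields the egg's genome from demethylation, was at -4.44 and -4.57 in spermatogonia against -2.68 and -3.01 in PGC (-1.66 ± 0.33, adjusted p = 0.0027). Kitl, the ligand of the Kit receptor and also a Sertoli cell product, fell by 2.25 ± 0.68 log2 units and Fgf8 by 1.63 ± 0.52. Dnd1, an RNA-binding protein that protects germ cells from loss, fell by 0.97 ± 0.32 and the alkaline phosphatase Alpl by 0.73 ± 0.22. Tfap2c, a specification factor, went the other way, at -0.47 and -0.62 against -2.28 and -2.24 (1.71 ± 0.47, adjusted p = 0.018). With the slide as a random block Tfap2c did not pass. Kit itself stood at -3.21 and -3.59, against -4.01 and -3.19 (adjusted p = 0.66), and its groups overlapped.

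Of 20 tested genes of mitosis, 17 were called lower in spermatogonia, against 11.8% of all tested genes, and none higher. With the slide as a random block 6 of the 20 were called lower, and with the deposited log2 values none. The median of the list was -1.24. Top2a, the topoisomerase that untangles chromosomes, was at -5.19 and -4.80 in spermatogonia, against -2.02 and -1.30 in PGC (-3.33 ± 0.61, adjusted p = 0.0015). Cdk1, the mitotic kinase, was at -5.23 and -4.76, against -2.06 and -2.47 (-2.73 ± 0.48, adjusted p = 0.0012). Both genes were detected on all 4 arrays and their groups were separated by more than 2 log2 units.

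The kinase's cyclins followed, Ccnb2 with -1.74 ± 0.37, Ccna2 with -1.14 ± 0.30 and Ccnb1 with -1.11 ± 0.33. So did kinases of the spindle and its checkpoint, Plk1 (-1.36 ± 0.28), Aurka (-1.20 ± 0.25), Bub1 (-1.46 ± 0.39), Bub1b (-1.15 ± 0.26) and Ttk (-1.17 ± 0.29). Aurkb, of the chromosomal passenger complex, was well above background on 1 spermatogonia array only (-1.77 ± 0.47). Ubiquitin ligase factors of mitotic exit were lower too, with Ube2c at -1.37 ± 0.34 and Cdc20 at -1.27 ± 0.26, and so was Foxm1, a transcription factor of mitotic genes (-1.38 ± 0.38). Birc5, Tpx2 and Cenpe complete the 17, at -0.90 ± 0.23, -0.96 ± 0.25 and -1.21 ± 0.25. Mad2l1, Kif11 and Cenpa did not pass, with adjusted p-values of 0.21, 0.21 and 0.87. Against PGC replicate 1 alone the list median was -1.26 and against replicate 2 alone -1.18.

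Promoters of mitotic genes often hold a cell cycle homology region (CHR, letters TTTGAA) below CCAAT boxes, which bind the DREAM complex and NF-Y. The windows below, from 250 bases before to 50 after the start (RefSeq, GRCm38.p6), are those of Ccnb2 (chr9:70421505-70421804, minus strand), Cdk1 (chr10:69352863-69353162, minus strand), Top2a (chr11:99024140-99024439, minus strand) and Plk1 (chr7:122159185-122159484, plus strand), chosen as called genes that hold both motifs. They are not the 4 with the largest decreases, and Bub1, for example, holds no TTTGAA in its window. Capitals mark TTTGAA and CCAAT on either strand, so that TTCAAA and ATTGG are the other strand's letters, and no 2 of them share bases.
Ccnb2: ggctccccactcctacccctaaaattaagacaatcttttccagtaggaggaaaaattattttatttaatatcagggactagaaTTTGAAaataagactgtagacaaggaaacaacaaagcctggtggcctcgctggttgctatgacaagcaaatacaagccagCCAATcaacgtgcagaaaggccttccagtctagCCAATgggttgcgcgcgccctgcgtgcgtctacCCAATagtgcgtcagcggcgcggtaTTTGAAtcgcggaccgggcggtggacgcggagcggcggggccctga
Cdk1: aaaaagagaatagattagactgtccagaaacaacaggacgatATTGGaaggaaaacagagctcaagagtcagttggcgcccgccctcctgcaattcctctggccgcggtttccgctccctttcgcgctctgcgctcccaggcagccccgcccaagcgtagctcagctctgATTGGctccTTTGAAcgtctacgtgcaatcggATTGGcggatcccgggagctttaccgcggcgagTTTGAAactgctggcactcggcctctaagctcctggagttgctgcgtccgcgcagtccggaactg
Top2a: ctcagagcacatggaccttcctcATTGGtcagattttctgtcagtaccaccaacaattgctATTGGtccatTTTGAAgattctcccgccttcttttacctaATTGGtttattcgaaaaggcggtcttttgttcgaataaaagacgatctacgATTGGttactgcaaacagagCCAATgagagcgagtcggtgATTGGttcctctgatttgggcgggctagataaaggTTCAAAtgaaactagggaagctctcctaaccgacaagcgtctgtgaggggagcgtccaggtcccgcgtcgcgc
Plk1: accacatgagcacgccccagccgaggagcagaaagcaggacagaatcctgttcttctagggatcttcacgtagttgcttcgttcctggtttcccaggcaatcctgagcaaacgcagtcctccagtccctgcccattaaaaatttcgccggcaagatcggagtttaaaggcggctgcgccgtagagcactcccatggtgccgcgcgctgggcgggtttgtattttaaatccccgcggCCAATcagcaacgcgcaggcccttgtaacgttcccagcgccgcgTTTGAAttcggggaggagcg
Genes without a window in the table were left out of the shares, which left 16 of the 20 tested mitosis genes and 7107 of 8852 tested genes with a RefSeq name. TTTGAA occurred in a window of 11 of the 16 (68.8%), against 14.4% of the 7107 and 20.2% of all genes in the table. CCAAT occurred in 14 of the 16 (87.5%), against 42.8% and 41.1%. These shares describe letters and were not tested against binding or expression.

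DNA replication genes were lower for 6 of 16 tested members and higher for none, against 11.8% and 8.71% of all tested genes. Their median was -0.67, and 3 were lower with the slide as a random block. Chaf1a, a histone chaperone, fell by 1.29 ± 0.32 log2 units, Mcm6 and Mcm5 of the replicative helicase by 1.47 ± 0.49 and 0.97 ± 0.29, the polymerase Pole by 1.11 ± 0.25, and the ribonucleotide reductase subunits Rrm1 and Rrm2 by 1.03 ± 0.23 and 0.54 ± 0.19. Mcm3 did not pass, at -4.26 and -3.54 in spermatogonia against -1.89 and -1.30 in PGC (adjusted p = 0.053). Without spermatogonia replicate 1 or without PGC replicate 2, none of the 16 passed, and 7 and 11 of the 20 mitosis genes did. Cell cycle inhibitors were called higher for 3 of 7 tested members and lower for none, against 8.71% and 11.8% of all tested genes. Cdkn1a (p21) was at -1.13 and -1.23, against -2.89 and -2.93 (1.73 ± 0.42, adjusted p = 0.0096). Cdkn1c (p57), at 1.18 and 1.08 against -0.31 and 0.33, rose by 1.12 ± 0.38, and the retinoblastoma gene Rb1 by 1.12 ± 0.22. Of the 3, 1 passed without spermatogonia replicate 1 or without PGC replicate 2.

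Markers of Sertoli cells, the somatic cells that enclose the germ cells, were lower on the same arrays. Of 9 tested Sertoli markers 7 were lower, against 11.8% of all tested genes, with a median of -2.43. The log2 of the summed level of the list was -0.05 to 0.07 in spermatogonia, against 2.12 to 3.10 in PGC. Sox9, the factor that makes a Sertoli cell, was at -3.19 and -3.46, against -0.91 and -1.42 (-2.16 ± 0.65, adjusted p = 0.028). Wt1 stood at -4.996 and -4.998, against -2.71 and -3.02 (-2.13 ± 0.54). Ptgds, Cst9, Clu and Aard changed by -3.31 ± 1.00, -3.24 ± 1.05, -2.91 ± 0.67 and -2.43 ± 0.45. Dhh and Gata4 were not well above background on either spermatogonia array, whereas Sox9, Wt1 and Clu were on both. Against the single PGC arrays the Sertoli median was -2.90 and -1.97, so the difference was larger against PGC replicate 1, while the mitosis median differed by under 0.1 between the same arrays. Without PGC replicate 1, 2 of the 9 Sertoli markers and 9 of the 20 mitosis genes passed. Of the Sertoli markers 2 passed without spermatogonia replicate 1, 3 without spermatogonia replicate 2 and 2 with the slide block. The part of Sertoli RNA in the cell cycle decrease was not tested.

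**Figure D3:**
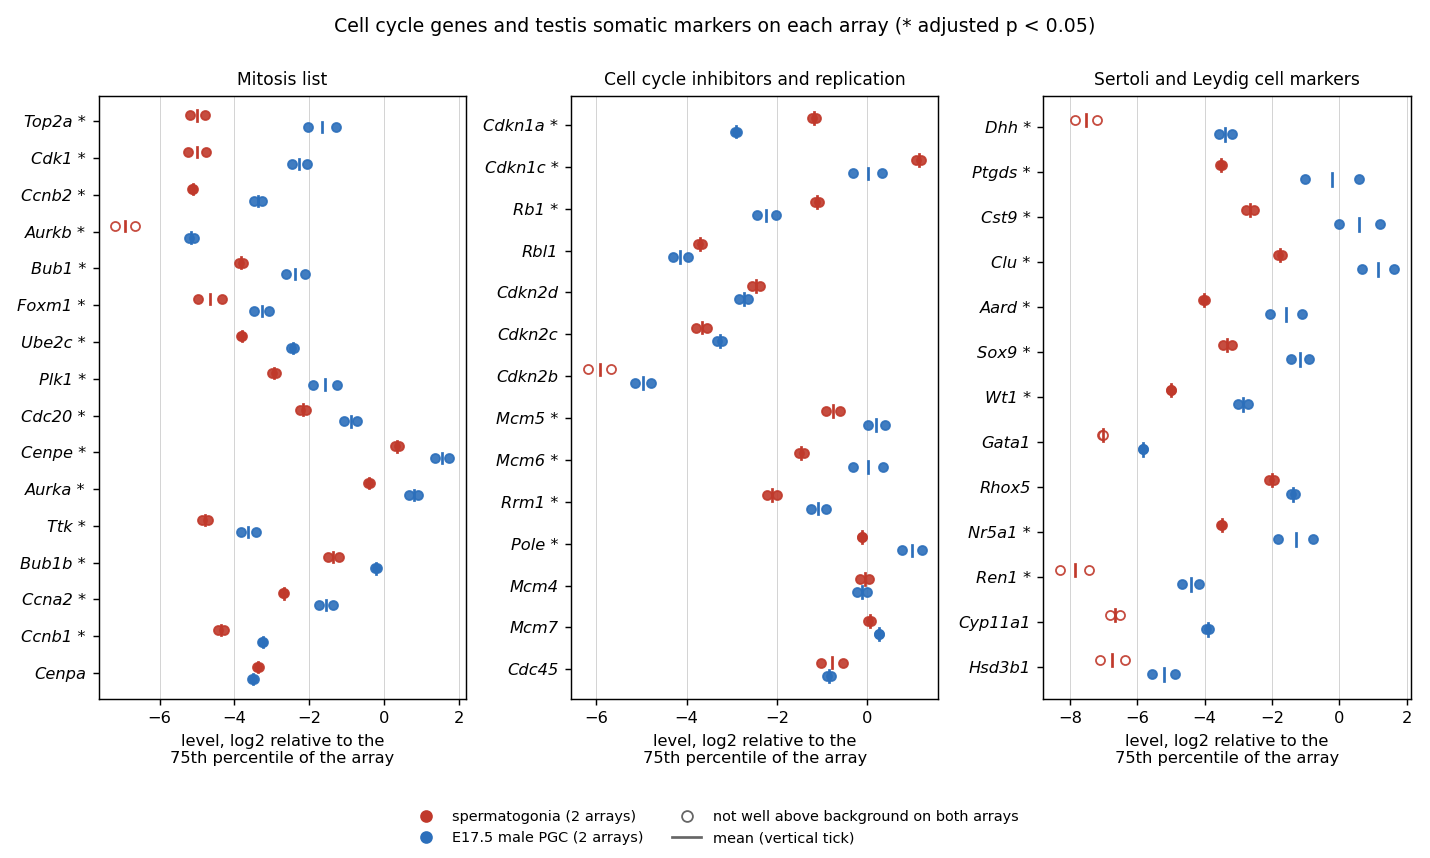
Level of each gene on each of the 4 arrays (horizontal axis, log2 relative to the 75th percentile of the array) for the mitosis list, for cell cycle inhibitors and replication genes, and for Sertoli and Leydig cell markers. Red points are the 2 spermatogonia arrays, drawn above the blue points of the 2 E17.5 male PGC arrays, and open points belong to groups not well above background on both arrays. Top2a, Cdk1, Dhh, Ptgds and Cst9 are well lower in spermatogonia, while Cdkn1a, Cdkn1c and Rb1 are higher.

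Leydig and steroid cell markers pointed the same way, with 2 of 4 tested lower, against 11.8% of all tested genes. Nr5a1 (SF1) was at -3.51 and -3.47, against -0.78 and -1.81 (-2.20 ± 0.40, adjusted p = 0.0015), and Ren1 was at least 5.22-fold lower. The summed log2 level of the list was -3.12 to -2.998 in spermatogonia, against -1.24 to -0.40 in PGC, with Star and Lhcgr not well above background on any of the 4 arrays. No marker of peritubular cells and stroma (11 tested), endothelium (6), blood (2), macrophages (2) or spermatids (2) passed. Summed log2 levels of the stroma list were 1.49 to 1.71 in spermatogonia and 1.0999 to 1.35 in PGC. Those of endothelium were -0.33 to -0.12, against -0.93 to -0.74. Blood markers summed to 0.51 and 0.30 in spermatogonia but at 1.93 and 0.15 on the 2 PGC arrays, where replicate 1 was the higher. Macrophage markers summed to between -4.14 and -3.80 in spermatogonia and between -4.08 and -3.72 in PGC, and spermatid markers to between -2.46 and -2.32, against -2.29 and -2.11.

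Of 17 tested genes of meiotic prophase 3 were called higher and 2 lower, against 8.71% and 11.8% of all tested genes. None passed with the slide as a random block. Sycp1 and Sycp3, proteins of the synaptonemal complex that pairs chromosomes, were higher. Sycp1 was at -0.51 and -0.46 in spermatogonia, against -2.90 and -1.90 in PGC (1.92 ± 0.56, adjusted p = 0.025). Sycp3 was at -0.11 and -0.40, against -2.04 and -1.88 (1.71 ± 0.42, adjusted p = 0.0097). The X-linked crossover gene Tex11 rose by 1.67 ± 0.38. Rec8, the meiotic cohesin, fell by 1.43 ± 0.44 and Zcwpw1, a histone reader of recombination sites, by 1.55 ± 0.45. Dmc1, the recombinase, stood at -4.96 and -4.92 against -4.82 and -4.13 (adjusted p = 0.51). When all probes of a gene were averaged, none of the 3 higher genes passed, and no member of the list passed without spermatogonia replicate 1.

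An E-box with the letters CACGTG, searched on both strands, lay in a window of 6 of the 14 tested meiotic genes that have one (42.9%), with 17 tested in all, against 11.7% of tested genes with a window and 8.09% of all genes in the table. The windows of Sycp1 (chr3:102936051-102936350, minus strand) and Sycp3 (chr10:88459337-88459636, plus strand) are printed with the E-box in capitals (RefSeq, GRCm38.p6), since both genes rose and hold the box. The other holders, Brdt, Hormad1, Stag3 and Tex12, were not called in either direction.
Sycp1: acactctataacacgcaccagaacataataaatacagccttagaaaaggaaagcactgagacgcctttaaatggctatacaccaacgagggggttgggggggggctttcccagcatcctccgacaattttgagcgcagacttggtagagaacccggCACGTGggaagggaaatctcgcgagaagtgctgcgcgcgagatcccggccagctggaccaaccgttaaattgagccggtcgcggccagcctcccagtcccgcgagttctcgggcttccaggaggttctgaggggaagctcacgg
Sycp3: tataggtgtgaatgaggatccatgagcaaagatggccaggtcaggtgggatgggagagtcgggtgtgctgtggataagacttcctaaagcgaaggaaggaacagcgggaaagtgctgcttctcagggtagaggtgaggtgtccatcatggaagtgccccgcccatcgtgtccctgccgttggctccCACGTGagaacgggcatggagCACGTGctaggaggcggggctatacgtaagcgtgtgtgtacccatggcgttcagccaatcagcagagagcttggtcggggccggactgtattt
No statement about the factor that binds these letters is drawn from the match.

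Later and other-sex programmes showed no call. Among 15 tested spermatocyte and spermatid genes the nearest to the threshold was Crem, an activator of spermatid genes, at -4.89 and -4.95 in spermatogonia against -5.60 and -5.93 in PGC (0.85 ± 0.30, adjusted p = 0.055). Odf1, a sperm tail protein, was well above background on both spermatogonia arrays and on no PGC array (adjusted p = 0.069). Among 11 oocyte genes the largest difference was Padi6, a protein of the egg's lattices, not well above background in spermatogonia, against -4.96 and -4.89 in PGC (adjusted p = 0.054). Testis histone variants (4 tested) and growth factor receptors (12 tested) also held no call.

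Among all tested genes 8.71% were higher and 11.8% lower. Of 9 tested genes of the fetal male germ cell programme 1 was higher (Lefty2) and 2 were lower (Dnd1 and Rec8). Its hallmark Dnmt3l, a cofactor that brings methylation to imprints and transposons, was at 1.52 and 1.51 in spermatogonia, against 3.43 and 3.46 in PGC. The replicates were almost equal and the groups apart, but the difference did not pass with the error estimated over all groups (-1.93 ± 0.81, adjusted p = 0.11). Fitted on the 4 arrays alone, Dnmt3l passed (adjusted p = 0.012), in a fit that called 4096 of 13747 genes, 2463 of them lower. With the slide as a random block Dnmt3l did not pass. None of the 3 de novo methylation genes was called. Of 6 maintenance and demethylation genes, Uhrf1, which guides Dnmt1 to newly replicated DNA, was higher, at -1.87 and -1.64 against -3.30 and -2.87 (1.33 ± 0.37, adjusted p = 0.019). Uhrf1 did not pass with the slide as a random block or with all probes of a gene averaged. Dnmt1 itself stood at -2.79 and -2.30 against -1.51 and -1.10 (-1.24 ± 0.47, adjusted p = 0.072), and Gadd45b was lower (-2.22 ± 0.49, adjusted p = 0.0053).

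Genes of the piRNA pathway, which silences transposons, held 1 call among 12 tested, which did not pass when any 1 of the 4 arrays was left out. Mov10l1, the helicase that starts piRNA production, was at -2.19 and -1.59, against -0.07 and 0.22 (-1.96 ± 0.63, adjusted p = 0.038). Mael, a further member, stood at 1.54 and 1.48 against 1.87 and 2.59 (adjusted p = 0.29). Among 15 genes of Polycomb and histone repression, 2 were higher and 3 lower, against 8.71% and 11.8% of all tested genes. Without spermatogonia replicate 1 or without PGC replicate 2, 1 was higher and 1 lower. Rnf2, the ubiquitin ligase of Polycomb complex 1, was at -2.24 and -2.34, against -3.88 and -4.07 (1.68 ± 0.21, adjusted p = 0.00014), and Cbx3 (HP1 gamma) rose by 1.07 ± 0.36. Ezh1, a methyltransferase of complex 2, was at -7.12 and -5.99 with 1 spermatogonia array well above background, against -3.54 and -3.01 (-3.28 ± 0.41, adjusted p = 0.00013). Eed of the same complex fell by 1.05 ± 0.33 and the corepressor Trim28 (KAP1) by 1.16 ± 0.27.

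Imprinted genes were called higher for Cdkn1c among 5 maternally expressed genes and for Mest and Mcts2 among 11 paternally expressed ones. None was called lower, and the shares of all tested genes were 8.71% higher and 11.8% lower. Mest, a marker of paternal expression in mesoderm, was at -1.24 and -1.25 in spermatogonia, against -3.36 and -2.85 (1.86 ± 0.36, adjusted p = 0.0024). On the sex chromosomes, Rhox9 (1 of 3 Rhox homeobox genes tested) was at -0.23 and -0.35, against -1.36 and -1.95 (1.37 ± 0.30, adjusted p = 0.0055). When all probes of a gene were averaged, no Rhox gene passed. The lowest change of Rhox9 over the alternatives was 0.37. Tex11 was the 1 call among 7 X-linked testis genes. The Y-linked deubiquitinase gene Usp9y was at -1.61 and -1.68, against -4.01 and -4.27 (2.49 ± 0.67, adjusted p = 0.016), and the other 3 Y-linked genes tested did not pass. Usp9y did not pass with any 1 array left out.

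Glycolytic enzymes were called in both directions, with 2 higher and 7 lower of 12 tested, against 8.71% and 11.8% of all tested genes. The isozymes of the first step moved in opposite directions: Hk2 was at -0.60 and -0.57 in spermatogonia against -1.93 and -1.84 in PGC (1.30 ± 0.22, adjusted p = 0.0011), while Hk1 was at -6.03 and -5.36 against -4.01 and -3.69 (-1.85 ± 0.56, adjusted p = 0.03). The phosphofructokinases split likewise, with Pfkp 1.26 ± 0.28 higher and Pfkm lower by -1.34 ± 0.29. Tpi1, Gapdh, Pkm, Ldha and Ldhb were lower by between 0.52 and 1.04 log2 units, and under a 75th percentile over all probes the list held 2 higher and 2 lower calls. Without spermatogonia replicate 1 it held 1 higher call and no lower one. Of 22 respiratory chain genes 4 were higher and none lower. Cox5a of complex IV was at 2.58 and 2.07 against 1.09 and 0.64 (1.46 ± 0.34, adjusted p = 0.0067), and Ndufv2 of complex I at 0.05 and -0.03 against -0.86 and -0.93 (0.91 ± 0.18, adjusted p = 0.003). Cyc1 and Ndufa4 rose by 0.94 ± 0.26 and 0.81 ± 0.21. No respiratory gene passed without spermatogonia replicate 1 and 1 did without PGC replicate 2.

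Among 11 genes of retinoic acid handling, Crabp2, which carries the acid to its receptor, was higher at -1.62 and -1.16 against -2.76 and -2.90 (1.44 ± 0.32, adjusted p = 0.005). The vitamin A importer Stra6 was at least 3.51-fold lower and the receptor Rxrb lower by -1.68 ± 0.46, with 1 spermatogonia array well above background. Aldh1a1, an enzyme of retinoic acid synthesis that Sertoli cells also make, stood at -1.17 and -1.29 against 2.10 and 1.40 and did not pass (-2.98 ± 1.03, adjusted p = 0.051). The part of Sertoli RNA in these lower values was not tested. Of 13 adhesion genes, 3 were higher and none lower, against 8.71% and 11.8% of all tested genes. The 3 were Cdh1, Cd9 and the tight junction scaffold Tjp1, at 1.30 and 0.97 against -0.47 and -0.41 (1.58 ± 0.29, adjusted p = 0.0014). The list of Nodal and BMP genes (12 tested) had Id4 and Lefty2 as its 2 calls. Id3, a relative of Id4, stood at -3.21 on both spermatogonia arrays against -2.23 and -2.45 (adjusted p = 0.20).

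Levels along the male germ line are given as descriptions with no test. Id4 averaged -2.63 ± 0.06 at E13.5, -4.26 ± 0.23 at E17.5 and -0.42 ± 0.21 in spermatogonia (SD, n = 2 each), and -1.25 ± 0.08 in GS cells. Tcl1 averaged 0.16 ± 0.07 at E10.5, 0.70 ± 0.18 at E13.5, -3.33 ± 0.24 at E17.5 and -0.36 ± 0.01 in spermatogonia. Id4, Tcl1 and Cdh1 were lower at E17.5 than at E13.5 and in spermatogonia. Pou3f1 was higher at each later stage, from -2.17 ± 0.26 at E13.5 to -1.28 ± 0.03 at E17.5 and 1.93 ± 0.17 in spermatogonia. Cdk1 averaged -1.41 ± 0.98 at E10.5, -1.26 ± 0.28 at E13.5, -2.27 ± 0.29 at E17.5 and -4.998 ± 0.33 in spermatogonia, against -2.06 ± 0.77 in GS cells and -1.31 ± 0.01 in adult testis. Of these male groups Top2a was likewise lowest in spermatogonia (-4.99 ± 0.28), with -1.02 ± 0.57 in GS cells. Dnmt3l averaged -4.44 ± 0.17 at E13.5, 3.44 ± 0.02 at E17.5, 1.52 ± 0.01 in spermatogonia and -4.13 ± 0.63 in GS cells.

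**Figure D4:**
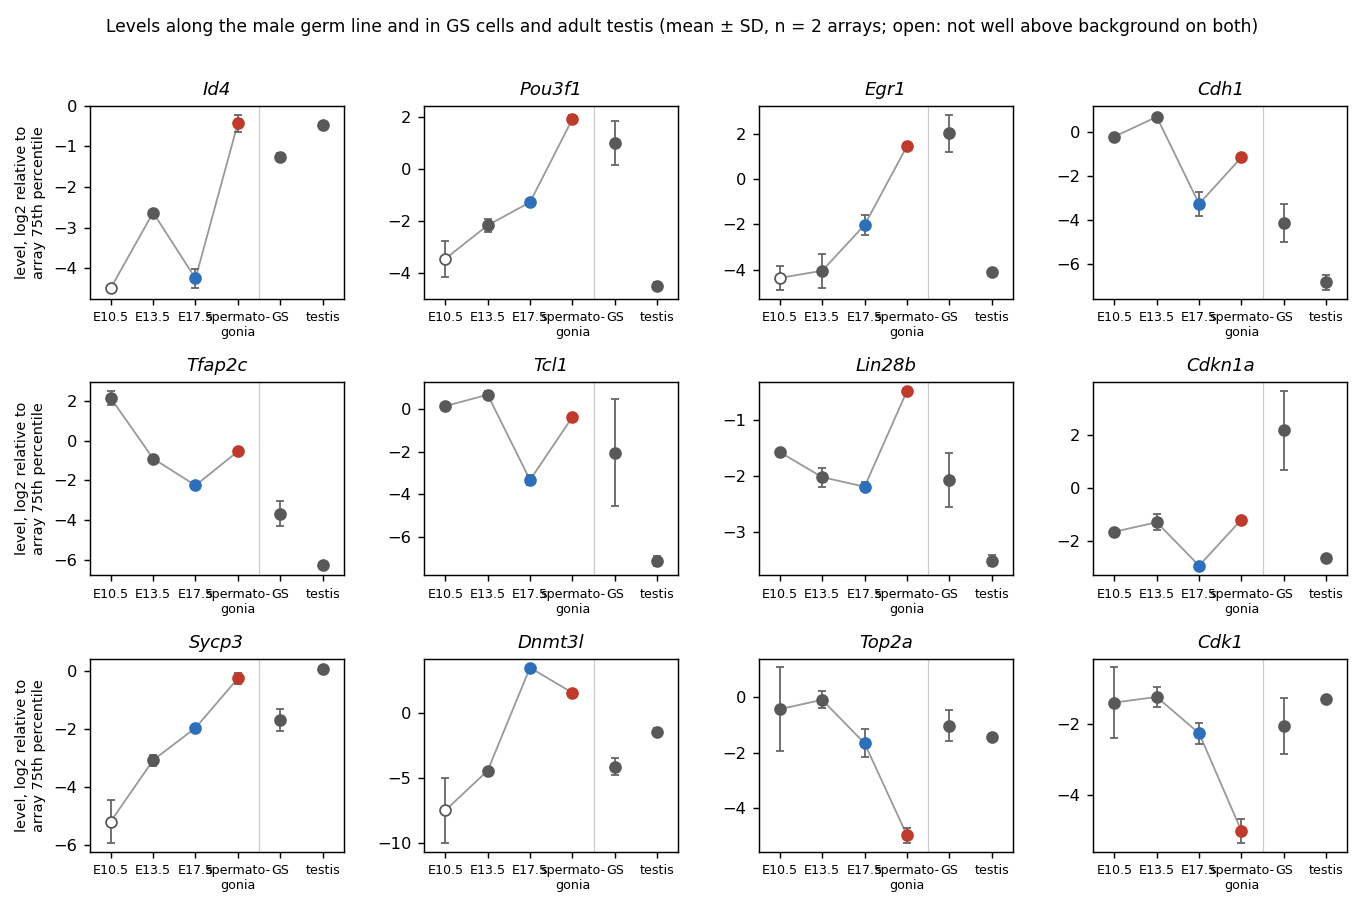
Mean level ± SD (vertical axis, log2 relative to the 75th percentile of the array, n = 2 arrays) of 12 genes at E10.5, E13.5 and E17.5 in male PGC, in spermatogonia, in GS cells and in adult testis. Blue points are E17.5 PGC, red points spermatogonia, and open points were not well above background on both arrays. Top2a and Cdk1 are lowest in spermatogonia, near -5, and Id4, Tcl1 and Cdh1 are lower at E17.5 than at E13.5 and in spermatogonia.

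The change from E17.5 male PGC to spermatogonia was set against a female change, oogonia minus E17.5 female PGC, in 1 model. Since the labels state no age for spermatogonia, the 2 changes need not span the same ages. The difference between the 2 changes passed for 1696 of 15965 genes (10.6%), with 1036 in the direction of a larger value in males and 660 in the opposite one. These counts depend on the scaling, and a 75th percentile over all probes gave 406 and 871. Pou3f1 and Id4 went apart between the sexes. Pou3f1 changed by 3.21 in males and by -2.54 ± 0.38 in females, a difference of 5.75 ± 0.55 (adjusted p = 6.41e-05). Id4 changed by 3.83 in males and by -1.67 ± 0.25 in females, a difference of 5.51 ± 0.36 (adjusted p = 7.62e-07). Frzb, a secreted Wnt antagonist, Nkain2 and Adm had the other largest differences, at 5.94 ± 1.78, 5.85 ± 1.36 and 5.78 ± 1.39, and each was well above background on both arrays in spermatogonia only, so these differences are fitted values and no bounds.

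The opposite end was led by S100a9 (-7.35 ± 1.74), Dhrs2 (-7.16 ± 1.66), Myot (-6.58 ± 1.97), Padi6 (-6.17 ± 1.59) and Ly6g6e (-5.76 ± 0.97). Padi6 averaged -1.26 in oogonia and -4.22 in E17.5 female PGC. Foxo1 and Lin28b, higher in spermatogonia, differed from their female change by 1.55 ± 0.30 and 2.37 ± 0.30. Dppa3 differed by -4.14 ± 0.47, being lower in spermatogonia and higher in oogonia by 2.48 ± 0.33. Of the 20 mitosis genes 9 differed between the sexes, against 10.6% of all genes tested. Ube2c was among the 9, lower in spermatogonia and higher in oogonia by 2.21 ± 0.34. Oogonia and spermatogonia lay on different slides and scan days from each other and from the PGC, so slide and group cannot be told apart here either.

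**Figure D5:**
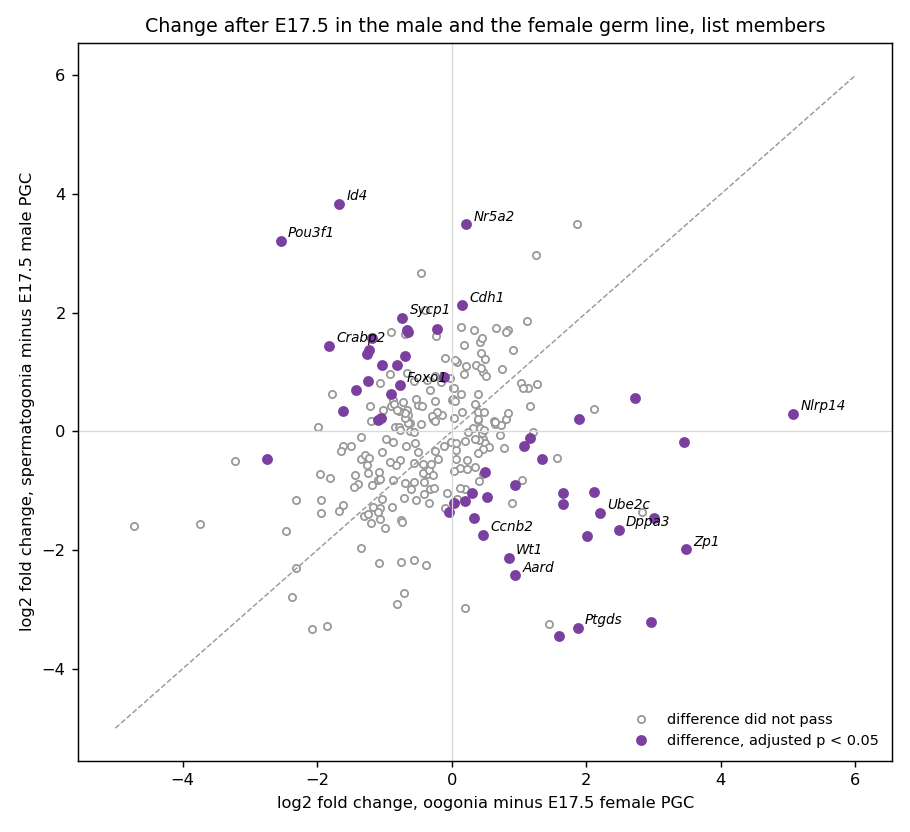
Log2 fold change from E17.5 PGC to spermatogonia (vertical axis) against that from E17.5 PGC to oogonia (horizontal axis) for the list members tested in both sexes, with purple points where the difference passed an adjusted p of 0.05. The dashed line marks equal changes. Pou3f1 and Id4 lie in the upper left, higher in spermatogonia and lower in oogonia than in the PGC of the same sex, and Dppa3 and Ube2c lie in the lower right.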

How the data were processed

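Total RNA of 28 samples was labelled with Cy3 and hybridised to single-colour Agilent arrays, per the labels' protocols. The deposited intensity values are processed signals made with Agilent Feature Extraction 10.5.1.1, per the file headers. A deposited log2 table holds the same signals as log2 minus each array's median. From 43803 probes, 514 with non-uniform spots were left out. Intensities were taken to log2 and scaled to each array's 75th percentile over the 7227 probes well above background on all 28 arrays. Each gene kept its brightest probe, and entered the test if, in 1 or both compared groups, neither array left that probe short of the well-above-background call. limma 3.58.1 (R 4.3.3) fitted 14 group means over 28 arrays, with Benjamini-Hochberg adjustment over all genes tested. Figures used matplotlib 3.10.9.

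A gene not well above background on any array of the dimmer group is given as a bound: the brighter group's mean against, per array, the higher of the lowest signal well above background and the probe's own signal. Of the probes, 16760 matched 13143 RefSeq symbols (GRCm38.p6) by accession. Alternatives were other scalings, normexp (offset 50, on median foreground and median background signals, in place of the mean signal), the deposited table, other filters, probes averaged, fewer arrays, a replicate block, random slide or scan day blocks, and each array left out. Genes are named if among the 15 strongest calls each way that kept their sign under every scaling, if members of a list, or if among the 5 strongest differences between the sexes each way; some of these are not reported here. The comparison and the lists were chosen with earlier results of these data known. The test was checked on simulated data.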

Additional observations from a re-analysis of the deposited data

Results flagged for a closer look

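For each gene below, the change from E17.5 male PGC to spermatogonia differed from the change from E17.5 female PGC to oogonia by the test of the difference itself (limma, adjusted p under 0.05). Values are differences in log2 units, the male change minus the female change. A higher value in males was found for Frzb (5.94), Nkain2 (5.85), Adm (5.78), Pou3f1 (5.75), Id4 (5.51), Lefty2 (5.42), Fam184b (5.17), Odf1 (5.15) and Usp9y (4.65). Usp9y lies on the Y chromosome, so its female values do not measure the gene. Its difference cannot be read as a difference between the sexes in how the gene changed. Smaller positive differences belonged to Fam81a (4.31), Dppa2 (3.36), Nr5a2 (3.27), Crabp2 (3.26), Zfp36 (2.76), Sycp1 (2.65), Rhox9 (2.60), Hk2 (2.57) and Lin28b (2.37). Positive differences were also found for Tex11 (2.31), Dmc1 (2.29), Cdkn1c (2.16), Crem (2.09), Cdh1 (1.96), Pfkp (1.95), Cdkn1a (1.95), Foxo1 (1.55) and Ndufv2 (1.03). A lower value in males was found for S100a9 (-7.35), Dhrs2 (-7.16), Myot (-6.58), Padi6 (-6.17), Ly6g6e (-5.76), C6 (-5.48), Ptgds (-5.18), Csta2 (-5.14) and Ren1 (-5.04). Smaller negative differences belonged to Dppa3 (-4.14), Aurkb (-3.78), Mybpc3 (-3.72), Ube2c (-3.57), Aard (-3.37), Wt1 (-2.98), Pou5f1 (-2.88), Ldhb (-2.69) and Ccnb2 (-2.21). Negative differences were also found for Birc5 (-1.83), Bub1 (-1.79), Kit (-1.69), Ccnb1 (-1.64), Ttk (-1.36), Rrm1 (-1.34), Plk1 (-1.33) and Cenpe (-1.25). Where a gene was not well above background in some of the 4 groups, its difference is a fitted value and no bound. Slide and group cannot be told apart for spermatogonia or for oogonia, which each lay alone on their slide. Groups of 2 arrays allow no search for outlying samples.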

How the results depend on the processing

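The calls between spermatogonia and E17.5 male PGC numbered 2817. They numbered 980 with normexp background correction, 118 with the deposited log2 table, 1101 with no filter on dim probes and 1169 with the slide as a random block. With 1 array left out they ran from 704, without spermatogonia replicate 1, to 1623, without PGC replicate 1. Calls of at least 4-fold numbered 495, and in separate fits 64 with normexp, 118 with the deposited table, 301 with no filter, 208 with genes well above background on all 4 arrays and 275 with the slide as a random block, and 159 to 432 with 1 array left out. Differences between male and female changes numbered 1696, and 356, 106, 549 and 561 with normexp, the deposited table, no filter and the slide block, and 729 to 1472 with 1 array left out. A lone array was assumed to vary like the other groups. The causes were not tested. Of 142 genes named for the male change 114 were called. The 15 strongest calls each way were picked among genes that kept their sign under every scaling, so for them this part was fixed beforehand. None of the 114 called genes reversed under any alternative. Of these, 31 still passed without spermatogonia replicate 1, 48 with the slide block, 94 with the scan day as a random block (chosen after seeing the data), and 5 under every alternative run.

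Among the named genes, some of them picked for a kept sign, only uncalled ones reversed. Of all 2817 calls 63 took the opposite sign with normexp and 39 with all probes averaged. With normexp the log2 changes became negative for Cenpa (-0.14), Crem (-0.15), Gfra1 (-0.0164), Kit (-0.0411) and Nanos2 (-0.0752). The log2 fold change of Kit was also negative with all probes averaged (-0.11) and without PGC replicate 1 (-0.21), as was Ddx4 without that array (-0.24). With 1 array left out the changes ran up to 0.61 for Kit and 0.65 for Ddx4, both without PGC replicate 2. The replicate numbers did not pair spermatogonia with E17.5 male PGC: the correlation of their replicate differences was -0.01. Male and female E17.5 PGC of the same number shared a slide and a scan day, with a correlation of 0.34. The replicate block gave 3091 calls, 533 of at least 4-fold and 1914 differences between the sexes. Scan date as a fixed block was not run, because it coincides with the group of spermatogonia. Signal over background limits the genes given as bounds.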

Other observations

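By chromosome, the 288 tested X-linked genes had 12.5% higher and 8.68% lower calls in spermatogonia, with a median log2 change of 0.12. The 676 genes of chromosome 7 had 7.4% higher and 17.6% lower calls and a median of -0.39, and the 456 genes of chromosome 17 had 6.8% higher and 18.6% lower. These shares were not tested.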
